A study of Mus musculus with 6 samples.

Results

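The core components of the mTOR pathway were examined in oocytes of aged female (AF) mice, as 10 mRNAs among the 25899 gene symbols of the deposited table. They were picked by name, with no threshold on their levels, and are the kinase *Mtor*, its partners *Rptor*, *Rictor*, *Mlst8* and *Deptor*, the upstream regulators *Tsc1*, *Tsc2* and *Rheb*, the S6 kinase *Rps6kb1* and the arginine sensor *Castor1*, which the table lists under its older symbol *Gatsl3*. All 10 were found. The libraries were 3 of non-polysomal (NP) fractions, which hold free and monosome-bound RNA, and 3 of polysomal (P) fractions, which hold RNA carried by several ribosomes. The study asked how the translation of single mRNAs in oocytes changes with maternal age. Oocytes of young females were not analysed here, so the comparison available is P against NP within AF oocytes.

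Every library was labelled as CD1 mice at 58 weeks, whereas the methods of the study give ICR mice at another age, so strain and age rest on the labels. All oocytes had the same history. Females received 5 IU of pregnant mare serum gonadotropin 46 h before collection. Oocytes were held in meiotic arrest with 100 µM IBMX, cultured for 180 min without it until the nuclear envelope had broken down (NEBD), and exposed to 0.1 mg/ml cycloheximide for 10 min, which keeps ribosomes on the mRNA. Each sample held 200 pooled oocytes, and the lysate was run on a sucrose gradient of 10 to 50%. How many females gave each pool is not given in the sources used here, so the tests measure the spread between these libraries. In pooled oocytes, a lower level in every cell cannot be told apart from absence in some of them.

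The mTOR kinase works in a pair of complexes. With raptor (*Rptor*) it forms mTORC1, which promotes cap-dependent translation through S6 kinase and the 4E-binding proteins, and with rictor (*Rictor*) it forms mTORC2, which phosphorylates Akt and SGK kinases. The GTPase Rheb activates mTORC1 at the lysosome, the TSC complex of *Tsc1* and *Tsc2* turns Rheb off, and CASTOR1 restrains mTORC1 when arginine is scarce. Full-grown oocytes make almost no new RNA, and proteins that appear during meiosis come from stored mRNAs whose loading onto ribosomes is regulated.

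Stored oocyte mRNAs are often regulated through their 3′ ends, where a cytoplasmic polyadenylation element can lie close to the polyadenylation signal. The last 100 bases of 1 transcript per gene (GENCODE M21, GRCm38) were therefore searched on the transcript strand for the element as TTTTAT or TTTTAAT and for the signal as AATAAA or ATTAAA. *Castor1* was the single member with TTTTAT in this window. The word was held by 13.7% of the 19110 protein-coding genes whose 3′ untranslated region has at least 100 bases. No member held TTTTAAT, which 5.02% of these genes did. AATAAA was found in 9 members, against 63.9% of these genes, and *Rheb* had neither form of the signal. The region of *Tsc2* has 84 bases, so its window runs into coding sequence. A window of 150 bases added TTTTAT in *Rps6kb1*, 127 bases from the end. This makes 2 of 10 members, beside 18.3% of the 18004 genes whose region has at least 150 bases. The sites below are those of *Castor1*, the member with the element, and of the kinase and the mRNAs with the lowest P over NP ratios, with the searched word in capitals.
Castor1, element, chr11:4222343-4222372, plus strand: attaaatctcacTTTTATtttcatgactgt
Castor1, signal, chr11:4222368-4222397, plus strand: actgtttatataAATAAAagacttgcggat
Mtor, signal, chr4:148557644-148557673, plus strand: aaattttgtgccAATAAAtgacatcagaat
Mlst8, signal, chr17:24473555-24473584, minus strand: accggaactatcAATAAAtgtgtatgaacc
Tsc1, signal, chr2:28691135-28691164, plus strand: taactgtgaacaAATAAAgatttattgttt
In *Castor1* the element began 55 bases and AATAAA 30 bases before the annotated end, and an ATTAAA, not shown on a line of its own, began at 67 bases. These matches describe the reference sequence and were not tested for use in oocytes.

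The values are FPKM, reads scaled to exon length and to the mapped reads of the library. The steps between low values showed what 1 read was worth, and the recovered depth lay between 1237799 and 18096676 reads in AF NP and between 163822 and 1549317 in AF P, with the lowest depth in AF P replicate 1. All 11 oocyte marker genes were listed above 0 in at least 1 library. Their summed levels were 10900 to 13300 FPKM in AF NP and 4810 to 14300 FPKM in AF P. Of 12 granulosa cell markers 6 were at 0 in every library, and their summed level was 7.85 to 104 FPKM in AF NP and 0.152 to 16.5 FPKM in AF P. *Cyp19a1* made up most of it in AF NP and in AF P replicate 1, was highest in AF NP replicate 3, at 104 FPKM, and was listed at 0 in AF P replicates 2 and 3. Of 7 blood markers 5 were in the table, 4 of these at 0 throughout, and the summed level was at most 0.643 FPKM. The part of these differences in the results was not tested.

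Most of the pathway core was present at low to moderate levels in both fractions. All 10 members were listed above 0 in AF NP replicates 1 and 2 and in AF P replicate 2, against 8 in AF NP replicate 3, 7 in AF P replicate 1 and 6 in AF P replicate 3. In AF NP, *Tsc1* had the highest mean level, 58.2 ± 41.0 FPKM (SD, n = 3), followed by *Deptor*, *Castor1*, *Rictor*, *Mtor*, *Mlst8*, *Tsc2*, *Rptor*, *Rheb* and *Rps6kb1*, the last at 0.375 ± 0.377 FPKM. In this order 8 of the 9 neighbouring pairs overlapped in range, and *Rptor* and *Rheb* did not. In AF P the order was *Castor1*, *Rictor*, *Deptor*, *Mtor*, *Tsc1*, *Tsc2*, *Rptor*, *Rheb*, *Mlst8* and *Rps6kb1*, and all 9 neighbouring pairs overlapped. FPKM corrects for exon length, so levels can be set side by side between genes.

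**Figure D1:**
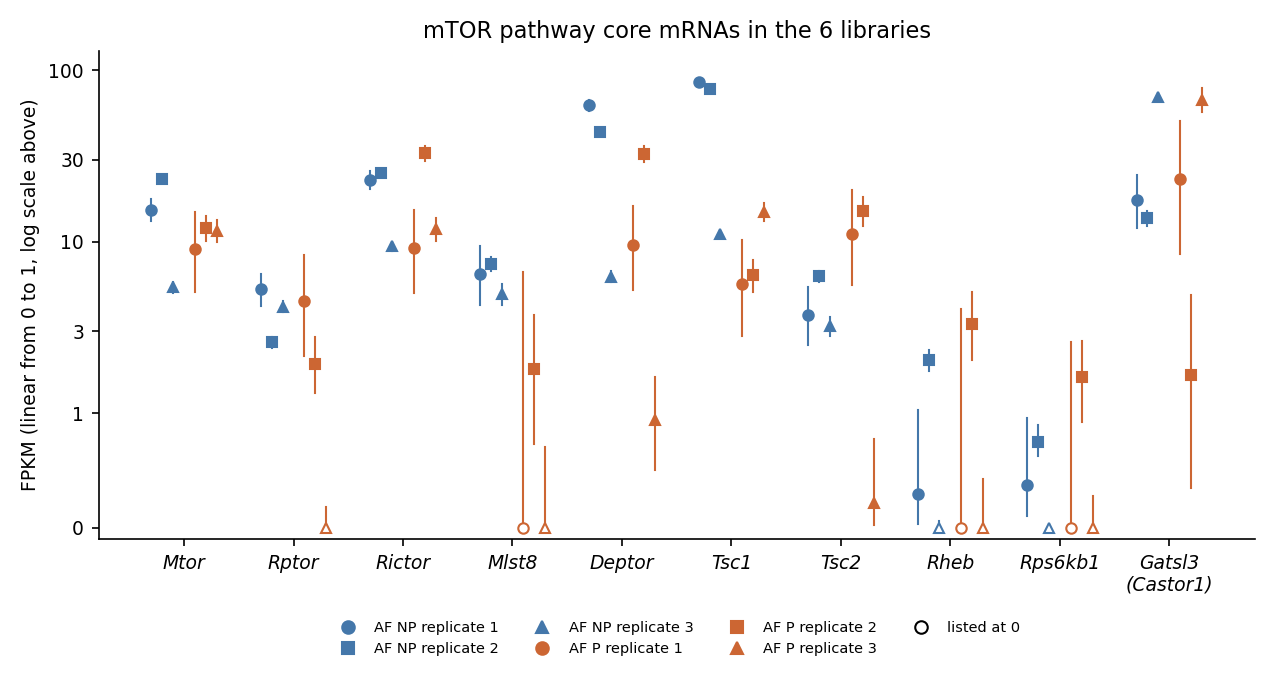
FPKM of each member in the 3 non-polysomal (AF NP, blue) and 3 polysomal (AF P, orange) libraries, on an axis that is linear up to 1 and logarithmic above. Bars are 95% Poisson intervals from the recovered reads (counting error only) and open symbols are values listed at 0. *Mlst8* is the 1 member whose fractions do not overlap, with P below NP throughout, as in 23.2% of all genes tested. Its 0 in AF P replicate 1 stands where 3 reads would be worth 5.44 FPKM. *Castor1* in AF P runs from 1.67 to 67.3 FPKM.

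The kinase itself was found in every library. *Mtor* (chromosome 4, 148448611 to 148557683, plus strand, GRCm38 as for all positions here) reached 15.4, 23.1 and 5.43 FPKM in replicates 1, 2 and 3 of AF NP, and 9.06, 12.0 and 11.6 FPKM in the same replicates of AF P, an order kept in all that follows. The AF P values lay inside the range of AF NP, and AF P varied less, with an SD of 1.60 FPKM against 8.88 FPKM (n = 3 each). The lowest AF P value rested on 15 recovered reads, with a Poisson interval of 5.07 to 14.9 FPKM. The log2 ratio of P over NP was -0.21 (95% interval -2.53 to 2.11), and its adjusted p was 0.935 (limma, Benjamini-Hochberg).

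*Rictor* and *Rptor* encode the subunits after which the complexes are told apart, and *Rictor* had the higher FPKM of the pair in every library. *Rictor* (chromosome 15, 6708381 to 6800398, plus strand) reached 23.1, 25.1 and 9.43 FPKM in AF NP and 9.18, 32.7 and 11.9 FPKM in AF P. The fractions overlapped, and the highest and the lowest value were both in AF P. *Rptor* (chromosome 11, 119602905 to 119899576, plus strand), the scaffold that brings substrates to mTORC1, measured 5.28, 2.59 and 4.19 FPKM in AF NP. In AF P it was at 4.53 and 1.95 FPKM and was listed at 0 in replicate 3, where 3 reads would be worth 0.144 FPKM. *Rictor* exceeded *Rptor* in all 6 libraries, by 4.37, 9.67 and 2.25 times in AF NP, by 2.03 and 16.8 times in AF P replicates 1 and 2, and with *Rptor* at 0 in replicate 3. In AF P replicate 1 their counting intervals, 5.02 to 15.4 FPKM for *Rictor* and 2.17 to 8.33 FPKM for *Rptor*, overlapped. *Mtor* stood at 0.576 to 0.922 of the level of *Rictor* in AF NP and at 0.368 to 0.987 of it in AF P. The log2 ratios of P over NP were -0.19 (95% interval -2.43 to 2.05) for *Rictor* and -0.95 (-3.38 to 1.49) for *Rptor*, with adjusted p of 0.940 and 0.666 (limma, Benjamini-Hochberg). Leaving out 1 library moved the ratio of *Rptor* between -1.51 and -0.28. Its exons share 0.62% of their bases with *Rptoros* on the opposite strand.

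*Mlst8* (chromosome 17, 24473550 to 24479078, minus strand), a subunit common to both complexes, had the lowest P over NP ratio of the members on log2(FPKM + 1) of the deposited values with all libraries. It was at 6.48, 7.45 and 4.97 FPKM in AF NP, from 27, 454 and 203 recovered reads. In AF P it was at 1.82 FPKM in replicate 2, from 7 reads, and listed at 0 in replicates 1 and 3. *Mlst8* was tested because its mean exceeded 1 FPKM in AF NP, as its AF P mean was 0.607 FPKM. Every AF P value was below every AF NP value. At the depth of AF P replicate 1, however, 3 reads would be worth 5.44 FPKM with the length used, which lies between the lowest AF NP value and the other two, so the 0 of that library bears little on the difference. In AF P replicate 3 the same limit was 0.575 FPKM. The log2 ratio was -2.35 (95% interval -4.68 to -0.03), with an unadjusted p of 0.0474 and an adjusted p of 0.312 (limma, Benjamini-Hochberg), which did not pass the threshold of 0.1. It was -1.78, -1.19 and -1.81 after median-of-ratios rescaling, quantile normalization and scaling to a common FPKM sum (adjusted p of 0.701, 0.707 and 0.743), -4.56 and -1.02 with pseudocounts of 0.1 and 5, and between -2.85 and -2.11 with 1 library left out. *Tsc1* had the lower ratio after quantile normalization (-1.435), with a pseudocount of 5 (-1.881), and without AF NP replicate 3 (-3.165) or AF P replicate 3 (-2.634). With a pseudocount of 5 *Deptor* was also lower, at -1.169. The annotation places 22.5% of the exon bases of *Mlst8* under exons of *Bricd5* on the opposite strand, and without a known strand setting their reads cannot be told apart.

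*Deptor* (chromosome 15, 55112317 to 55259271, plus strand), an inhibitor bound to the kinase in both complexes, spread more widely than *Mtor*. It was at 62.4, 44.0 and 6.27 FPKM in AF NP and at 9.63, 32.6 and 0.946 FPKM in AF P. Replicate 3 was lowest in both fractions, and the fractions overlapped. *Deptor* was at 4.04, 1.90 and 1.15 times the level of *Mtor* in AF NP and at 1.06, 2.70 and 0.0818 times in AF P. The P over NP ratio of *Deptor* was -1.63 on the log2 scale (95% interval -4.21 to 0.95, adjusted p = 0.495, limma, Benjamini-Hochberg), and between -2.59 and -0.54 with 1 library left out. Its exons share 3.41% of their bases with *Gm9920* on the opposite strand.

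The partners of the TSC complex were unequal in the AF NP libraries. *Tsc1* (chromosome 2, 28641228 to 28691167, plus strand), which encodes the stabilising subunit hamartin, was at 85.6, 77.8 and 11.1 FPKM in AF NP and at 5.67, 6.37 and 14.9 FPKM in AF P. AF NP replicates 1 and 2 were far above all AF P libraries, but AF NP replicate 3 was below AF P replicate 3. *Tsc2* (chromosome 17, 24595937 to 24632629, minus strand), which encodes tuberin, the subunit that acts on Rheb, was at 3.76, 6.31 and 3.22 FPKM in AF NP and at 11.2, 15.1 and 0.215 FPKM in AF P. AF P replicates 1 and 2 were above all AF NP libraries and AF P replicate 3 was below them, on 2 recovered reads with an interval of 0.0260 to 0.775 FPKM.

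As a result, *Tsc1* stood at 22.8, 12.3 and 3.44 times *Tsc2* in AF NP and at 0.509, 0.421 and 69.4 times *Tsc2* in AF P, the last with an interval of 19.2 to 573 from the 2 reads of *Tsc2* alone. The order of the pair was thus the opposite in AF P replicate 2. In AF P replicate 1 both rested on 11 reads, with overlapping intervals of 2.83 to 10.2 FPKM for *Tsc1* and 5.57 to 20.0 FPKM for *Tsc2*, so their order there was not resolved at this depth. The log2 ratio of P over NP was -2.24 for *Tsc1* (95% interval -4.54 to 0.06, unadjusted p = 0.0555, adjusted p = 0.330) and 0.23 for *Tsc2* (-2.44 to 2.91, adjusted p = 0.937), both from limma with Benjamini-Hochberg adjustment. With 1 library left out the ratio of *Tsc1* ran from -3.17 to -1.74. Without AF P replicate 1 the ratio of *Tsc2* was -0.25, and without AF P replicate 2 it was -0.46. The exons of *Tsc2* share 7.20% of their bases with *Pkd1* on the opposite strand.

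*Rheb* and *Rps6kb1*, the activator and a main substrate of mTORC1, had the lowest levels of the members in AF NP. *Rheb* (chromosome 5, 24802823 to 24842624, minus strand) gave 0.292 FPKM in AF NP replicate 1, from 2 reads with an interval of 0.0353 to 1.05 FPKM, 2.03 FPKM in AF NP replicate 2, from 204 reads, and 3.32 FPKM in AF P replicate 2, from 21 reads. It was listed at 0 in the other libraries, which allows up to 0.0446 FPKM in AF NP replicate 3, 3.31 FPKM in AF P replicate 1 and 0.350 FPKM in AF P replicate 3. *Rps6kb1* (chromosome 11, 86498871 to 86544805, minus strand) gave 0.373 FPKM in AF NP replicate 1, 0.753 FPKM in AF NP replicate 2 and 1.62 FPKM in AF P replicate 2. It was at 0 in the same libraries as *Rheb*, with limits of 0.0286, 2.12 and 0.224 FPKM. In both genes replicate 2 held the highest value of each fraction. The log2 ratio of *Rheb* was 0.05 (95% interval -1.73 to 1.82, adjusted p = 0.982, limma, Benjamini-Hochberg), and *Rps6kb1* was not tested because its mean did not exceed 1 FPKM in either fraction. The exons of *Rps6kb1* share 1.79% of their bases with *Rnft1* on the opposite strand.

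*Castor1* (chromosome 11, 4218225 to 4222409, plus strand), the cytosolic arginine sensor, had the highest mean of the members in AF P. It was at 17.5, 13.7 and 69.8 FPKM in AF NP and at 23.3, 1.67 and 67.3 FPKM in AF P. Replicate 3 was highest in both fractions, at the 85.7 and 85.3 percentiles of the genes listed above 0 in those libraries. Its intervals in AF P, 8.54 to 50.6 FPKM from 6 reads, 0.344 to 4.88 FPKM from 3 reads and 57.4 to 78.4 FPKM from 164 reads, did not overlap one another. The AF P mean was 30.7 ± 33.4 FPKM (SD, n = 3), and without AF P replicate 3 it was 12.5 FPKM. The log2 ratio of P over NP was -0.71 (95% interval -3.21 to 1.80, adjusted p = 0.770, limma, Benjamini-Hochberg), and without AF P replicate 2 it was 0.60.

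**Figure D2:**
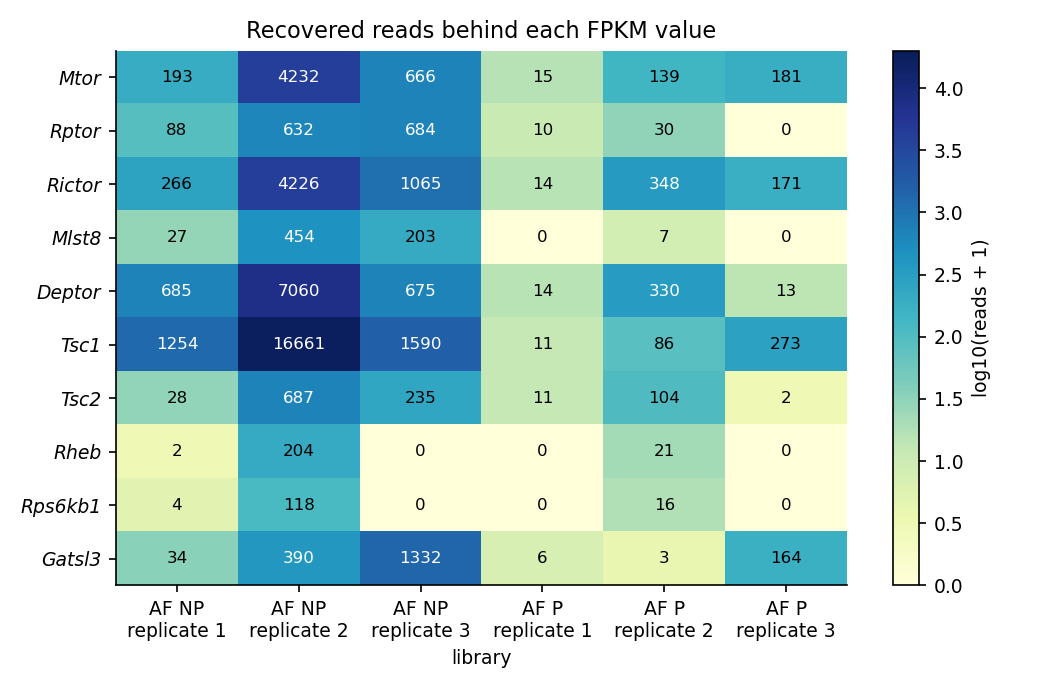
Recovered reads of each member (rows) in each library (columns), with colour on a log10 scale. In AF P replicate 1 no member had more than 15 reads, and *Tsc1* reached 16661 reads in AF NP replicate 2.

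The reads behind these values were few in the P fractions. Summed over 3 libraries, *Tsc1* had 19505 recovered reads in AF NP and 370 in AF P, *Mtor* had 5091 and 335, and *Mlst8* had 684 and 7. For *Rictor*, *Mlst8*, *Tsc2* and *Rheb* the annotated exon length did not give whole reads, and the smallest length that did was used, so their reads are minimum estimates and their intervals and limits may be too wide. Intervals and limits cover counting error only, since the cDNA was amplified before sequencing and no molecular identifiers were used.

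None of the 9 members tested differed between P and NP past the threshold (limma on log2(FPKM + 1), Benjamini-Hochberg adjusted p below 0.1 over all genes), where 192 of 10578 genes, or 1.82%, did, 190 of them lower in P. Calls lower in P numbered 1 after median-of-ratios rescaling, 2 after quantile normalization and 5 with a common FPKM sum, and 2 genes were called higher in each. The 192 calls became 4, 12 and 1 without AF NP replicate 1, 2 or 3 and 331 without AF P replicate 3. With the replicate number as a block 668 genes were called, 663 of them lower in P, and still no member. The intervals of the members are wide, so a missed threshold does not show that the fractions were alike. At an unadjusted p below 0.05 there was 1 member, *Mlst8*, and 15.8% of all genes. The same member was the 1 of 9 with every AF P value below every AF NP value, a pattern that 23.2% of all genes tested had. It was tested because its mean exceeded 1 FPKM in NP alone, with 0.607 FPKM in P. For any 1 gene, the smallest p that an exact permutation of 3 libraries of each kind allows is 0.1.

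Relative to the bulk of the transcriptome, the estimated ratios of the members were spread on both sides. The median log2 ratio of all genes tested was -1.03, and 19.9% of genes were higher in P. Summed over all genes, the deposited FPKM were 597000 to 633000 per library in AF NP and 246000 to 394000 in AF P. Every ratio on FPKM as deposited carries this difference in scale, and with a common FPKM sum the median of all genes was -0.43. The median over the 9 members was -0.71 with 7 below 0, and it was 0.19, 0.19 and 0.22 after median-of-ratios rescaling, quantile normalization and scaling to a common FPKM sum (where *Rps6kb1* also passed the filter), so its sign depends on the scaling. Relative to the median of all genes, *Tsc2* stood at 1.26, *Rheb* at 1.08, *Rictor* at 0.84, *Mtor* at 0.82, *Castor1* at 0.33 and *Rptor* at 0.08 on the log2 scale, and *Deptor*, *Tsc1* and *Mlst8* at -0.60, -1.21 and -1.32. Over the alternatives in which each was tested, *Tsc2*, *Rheb*, *Rictor* and *Mtor* stayed above the median of all genes (lowest 0.74, 0.57, 0.38 and 0.32). *Tsc1* and *Mlst8* stayed below it. *Castor1* ran from -0.80 to 1.80, *Rptor* from -0.48 to 0.65 and *Deptor* from -1.39 to 0.39. Each of these had its negative and positive ends set by leaving out a single AF P library. *Rheb*, with means of 0.775 FPKM in AF NP and 1.11 FPKM in AF P, could not be tested without AF P replicate 2. The alternatives reuse the same libraries, and the limma interval of every member tested includes -1.03, the median of all genes. Stability over them therefore does not place a member above or below that median. The ratios themselves were below 0 for *Deptor*, *Tsc1* and *Mlst8* under all alternatives and scalings run, while each of the other 6 changed sign under at least 1 of them. The ratio compares the makeup of the fractions and is not the share of an mRNA found on polysomes.

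**Figure D3:**
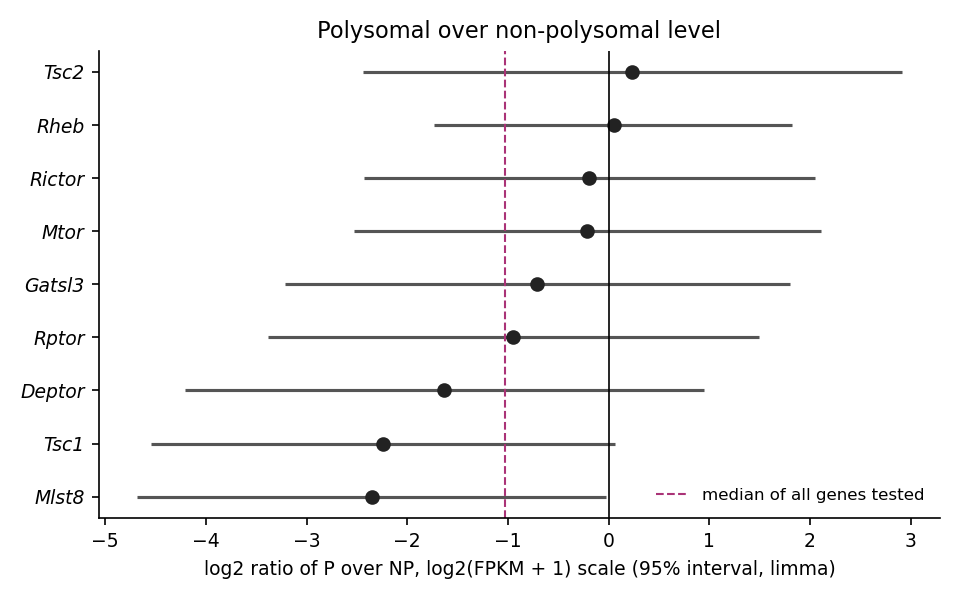
Log2 ratio of P over NP for the 9 members tested, with the 95% interval of limma, on the log2(FPKM + 1) scale with FPKM as deposited. The dashed line is the median of all genes tested, -1.03; the interval of *Mlst8* ends just below 0 and the others include 0, and 6 members changed sign under another scaling or setting.

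The other genes of the pathway were taken from a list of 80 by role, of which 79 were in the table, 5 under an older symbol, and 67 passed the filter on low levels. None passed the threshold (limma, Benjamini-Hochberg), and 11, or 16.4%, had an unadjusted p below 0.05, all lower in P, beside 15.8% of all genes, where 1638 of 1669 were lower in P. With the replicate number as a block 3 of the 67 passed, or 4.48%, namely *Eef2*, *Lamtor5* (listed as *Hbxip*) and *Kptn*, beside 6.31% of all genes. Of the 67, 56 were lower and 11 higher in P, with a median log2 ratio of -1.13 beside -1.03 over all genes, a split that became 35 and 28 after median-of-ratios rescaling, 35 and 32 after quantile normalization, and 39 and 27 with a common FPKM sum. Every AF P value was below every AF NP value in 20 of them, or 29.9%, beside 23.2% of all genes. Both counts include genes that passed the filter through NP alone, among them pathway genes listed at 0 in every AF P library.

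Among the other complex subunits and assembly factors (9 of 9 tested, 6 lower in P and 5 or 6 under the rescalings, median -1.50), *Akt1s1*, which encodes the mTORC1 inhibitor PRAS40, was at 152, 49.9 and 82.1 FPKM in AF NP and at 26.7, 40.8 and 23.8 FPKM in AF P. The mTORC2-associated *Prr5l* was at 92.9, 68.0 and 382 FPKM in AF NP and at 35.6, 19.9 and 24.6 FPKM in AF P. Neither overlapped between the fractions, and their log2 ratios were -1.50 ± 0.90 and -2.33 ± 0.92 (SE), with adjusted p of 0.411 and 0.229 (limma, Benjamini-Hochberg). Of the Rag GTPases and Ragulator, which carry the amino acid signal at the lysosome, 9 of 13 were tested and all 9 were lower in P with FPKM as deposited (median -1.22), against 5 of 10, 5 of 9 and 5 of 10 under the 3 rescalings in the order above. *Rragc* was at 148, 163 and 107 FPKM in AF NP and at 223, 195 and 11.6 FPKM in AF P, so AF P replicate 3 alone was below AF NP. *Lamtor3* was at 240, 90.6 and 197 FPKM in AF NP and at 94.3, 75.8 and 32.9 FPKM in AF P, and its fractions overlapped.

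Of the GATOR1, GATOR2, KICSTOR and sensor genes, the arm on which CASTOR1 acts, 15 were tested and 12 were lower in P (median -1.32), against 9 of 13, 8 of 15 and 10 of 14 under the rescalings. *Nprl2*, a GATOR1 subunit, was at 342, 215 and 174 FPKM in AF NP and at 71.3, 63.8 and 128 FPKM in AF P, without overlap (adjusted p = 0.341, limma, Benjamini-Hochberg). *Sec13*, shared by GATOR2, the nuclear pore and COPII coats, was at 253, 201 and 682 FPKM in AF NP and at 290, 300 and 89.3 FPKM in AF P, with overlap. In the upstream insulin, PI3K, Akt and AMPK arm 15 of 18 tested genes were lower in P (median -1.19), against 9 of 16, 9 of 18 and 11 of 17 under the rescalings, with a median of 0.06 after quantile normalization. The AMPK subunit *Prkag1* was at 258, 250 and 189 FPKM in AF NP and at 190, 48.7 and 8.67 FPKM in AF P, where the ranges met at their edges. *Prkab1*, another AMPK subunit, was at 137, 164 and 112 FPKM in AF NP and at 17.9, 47.4 and 88.6 FPKM in AF P, without overlap (adjusted p of 0.236 and 0.350, limma, Benjamini-Hochberg).

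Among the downstream targets 14 of 16 tested genes were lower in P (median -0.76), but 7 of 15, 7 of 16 and 7 of 16 under the rescalings, with medians of 0.20, 0.27 and 0.18. *Eef2*, the elongation factor that moves the ribosome along the mRNA, came nearest to the threshold of all 67. It was at 1940, 2250 and 1970 FPKM in AF NP and at 550, 405 and 954 FPKM in AF P, with a log2 ratio of -1.78 (95% interval -2.83 to -0.72, adjusted p = 0.106, limma, Benjamini-Hochberg). *Eef2k*, the kinase that inhibits this factor and is itself a target of S6 kinase, was at 420, 335 and 206 FPKM in AF NP and at 342, 147 and 319 FPKM in AF P. Its fractions overlapped, with a log2 ratio of -0.28 (95% interval -1.68 to 1.12, adjusted p = 0.843).

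**Figure D4:**
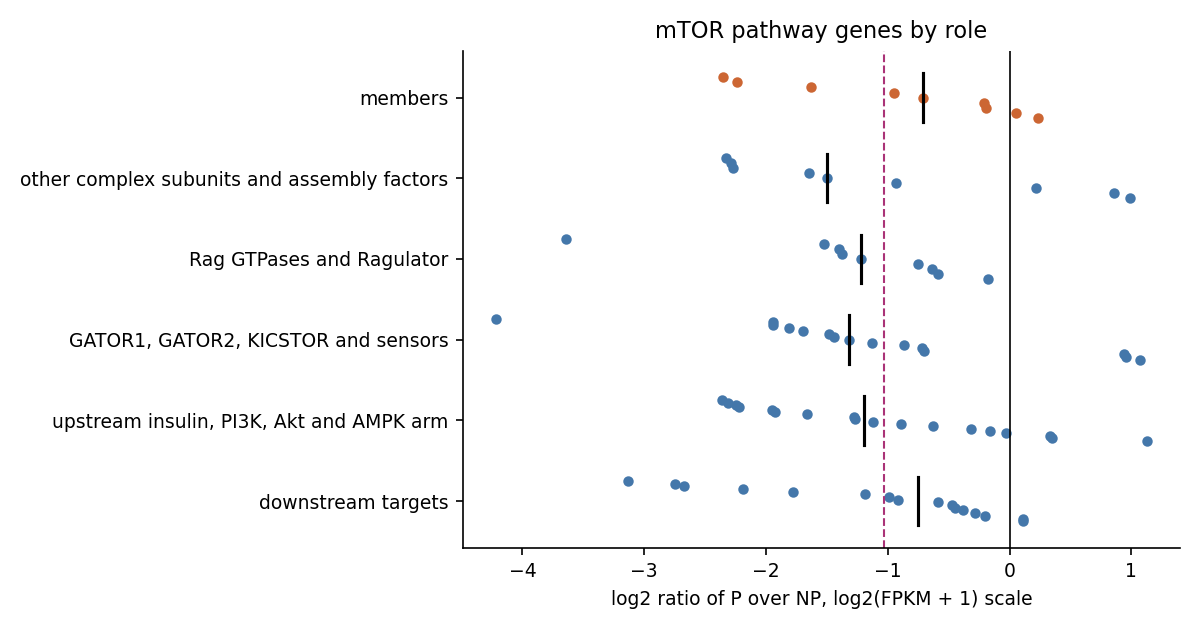
Log2 ratio of P over NP, on the log2(FPKM + 1) scale with FPKM as deposited, for the 9 members tested (orange) and the 67 other pathway genes tested (blue), in rows by role. Each point is a gene, black bars are medians and the dashed line is the median of all genes, -1.03; the member median is -0.71 and those of the other roles lie between -1.50 and -0.76, while the medians of the members, the downstream targets and the upstream arm change sign under at least 1 other scaling.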

How the data were processed

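RNA-Seq of 3 NP and 3 P libraries was analysed. Per the labels and methods, rRNA was removed, the cDNA was amplified with a single-cell kit, and Nextera libraries were sequenced. The values deposited by the authors are FPKM per gene, made in Seqmonk 1.40.0 from reads trimmed by Trim Galore 0.4.1 and mapped by Hisat2 2.0.5 on GRCm38, with FastQC 0.11.5 also named. Their annotation release, strand setting and way of counting fragments were not given in the sources used here. The deposited means of each fraction were not used, nor was the authors' comparison of ages. Low-level mRNAs amplified from few cells can drop out, which widens the spread between libraries.

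Of 25965 rows, 66 repeated a symbol, and the row with the highest mean was kept. The 10578 genes whose mean exceeded 1 FPKM in P or NP were fitted on log2(FPKM + 1) in limma 3.58.1 (R 4.3.3), letting the variance follow the level. Tests were two-sided, with Benjamini-Hochberg adjusted p below 0.1 over all genes. Fold changes on this scale understate those of low genes. Both this step and the depth step were tested on simulated data. In 1 run, the noise of every gene was set to the median residual SD of these libraries, 1.22 on the log2 scale. At this noise the fit called none of the genes simulated with a log2 change of 2, so a change of that size can be missed. Unlike the fit, this run did not let the noise follow the level, so it does not give the power at any 1 level. Each lysate gave both an NP and a P pool, but no source used here says that equal numbers mark the same lysate, and the block was an alternative.

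Depth was the step that made most low values whole reads at GENCODE M21 exon lengths. Between 83.2% and 88.7% of the low values checked per library were whole within 0.02 reads. Whether 1 step is a read or a fragment is not settled. For 4 members the length was the smallest, up to 25000 bases, making all 6 values whole within 0.002 reads. No count test was run, since the exon lengths of many genes are uncertain. Limits for a value of 0 are 3 reads, and intervals are 95% exact Poisson.

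The members, the pathway and marker lists and the tests were chosen with earlier results of these data known. Named genes are all members, other pathway genes past the threshold, the 2 of highest mean FPKM in each role, and genes overlapping a member's exons. *Cyp19a1*, and the genes related to members that are given among the closing observations, were named after their values were seen. Older symbols were matched through RefSeq synonyms (GRCm38.p6), and Kics2 was not matched. Alternatives were other scalings, filters and pseudocounts, a constant prior variance, the replicate number as a block, a threshold of 0.05, each library left out, and a 150-base window. Plots were made in Python 3.11.15.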

Additional observations from a re-analysis of the deposited data

How the results depend on the processing

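No member passed the threshold under any of the 16 alternatives, and the lowest adjusted p (limma, Benjamini-Hochberg) was 0.165, for *Tsc1* without AF NP replicate 3. The filters, the variance prior, the block and the threshold leave a ratio as it is. Of 98 log2 ratios of members under the other 11 alternatives, 78 kept their sign and 20 did not, 10 of these under the 3 rescalings. Median-of-ratios rescaling gave 0.73 for *Mtor*, 0.76 for *Rictor* and 0.19 for *Castor1* (*Gatsl3*), quantile normalization 0.86, 0.96 and 0.19 with 0.06 for *Rptor*, and a common FPKM sum 0.65, 0.69 and 0.11. The median of the members was then 0.19, 0.19 and 0.22, and that of all genes -0.37, 0.00 and -0.43. A pseudocount of 0.1 gave -0.20 for *Tsc2* and -0.43 for *Rheb*. Leaving out 1 library gave ranges of -0.75 to 0.20 for *Mtor*, -0.71 to 0.16 for *Rictor*, -0.46 to 1.41 for *Tsc2*, -0.28 to 0.52 for *Rheb* and -1.73 to 0.60 for *Castor1*. *Rheb* could not be tested without AF P replicate 2, nor could *Rheb* and *Rptor* at a mean FPKM above 5.

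The other pathway genes had 1 call at a mean FPKM above 5 (*Eef2*) and between 0 and 2 when a library was left out, namely *Prkag1* without AF P replicate 1, and *Eef2* and *Lamtor5* (*Hbxip*) without AF P replicate 3. Over all genes, the 192 calls became 69 with a pseudocount of 0.1, 0 with no filter, 3, 4 and 7 under the rescalings in the order above, 15 with a constant prior variance, 65 at a threshold of 0.05, and between 1 (without AF NP replicate 3) and 331 (without AF P replicate 3) with a library left out. Leaving out AF NP replicate 1 or 2 gave 4 and 12. The cause was not tested. A window of 150 bases gave 2 members with the element.

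With the replicate number as a block, 668 genes were called, 5 of them higher in P, and 3 other pathway genes (*Eef2*, *Lamtor5*, *Kptn*), but no member. Deviations from the group means correlated at 0.0634, 0.0991 and 0.116 between NP and P libraries of the same number and at -0.0886 to 0.0208 between others, so every library correlated best with its own number, but not every pair was over 0.1 and the pairing was not taken as shown. In AF P replicate 1, 3 reads are worth between 1.36 (*Rptor*) and 11.6 FPKM (*Castor1*).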

Other observations

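For 3 members a related gene that encodes a protein of like function was also listed, and these were looked at after their values had been seen. *Rhebl1*, a relative of *Rheb*, was at 30.8, 13.2 and 4.12 FPKM in AF NP and at 0, 32.5 and 109 FPKM in AF P, in the order of replicates 1, 2 and 3. It exceeded *Rheb* in the 5 libraries where it was above 0, by 106 times in AF NP replicate 1 (interval 29.3 to 873 from the 2 reads of *Rheb* alone), by 6.50 times in AF NP replicate 2 and by 9.79 times in AF P replicate 2, with *Rheb* at 0 in the other libraries. Its log2 ratio of P over NP on the log2(FPKM + 1) scale was 0.22 (95% interval -2.71 to 3.16, adjusted p = 0.944, limma, Benjamini-Hochberg). *Rps6kb2*, the second S6 kinase gene, was at 18.2, 10.9 and 23.1 FPKM in AF NP and at 0, 0.358 and 5.02 FPKM in AF P. It was at 48.7 and 14.5 times *Rps6kb1* in AF NP replicates 1 and 2 and at 0.221 times in AF P replicate 2. Its fractions did not overlap, with a log2 ratio of P over NP of -3.13 (95% interval -5.70 to -0.56, adjusted p = 0.232, limma, Benjamini-Hochberg). *Castor2*, listed as *Gatsl2*, was at 11.2, 8.22 and 1.35 FPKM in AF NP and at 8.07, 6.95 and 25.8 FPKM in AF P. *Castor1* was at 1.56, 1.67 and 51.6 times *Castor2* in AF NP. In AF P it was at 2.88, 0.240 (interval 0.0495 to 0.702 from its 3 reads) and 2.61 times *Castor2*. Its listed value was the higher of the pair in 5 of 6 libraries. In AF P replicate 1 it rested on 6 reads, with an interval of 8.54 to 50.6 FPKM beside 8.07 FPKM of *Castor2*. The reads of *Castor2* were not recovered, so the order there was not resolved. The ratio of P over NP of *Castor2* was 0.96 on the same scale (95% interval -1.56 to 3.47, adjusted p = 0.675, limma, Benjamini-Hochberg). How reads of these related genes were assigned is not given in the sources used here.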
